A study of Mus musculus with 6 samples.

Results

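The 6 imprinted genes H19, Igf2, Igf2r, Cdkn1c, Kcnq1ot1 and Phlda2 were measured across mouse embryonic fibroblasts (MEF), muscle and cells made by direct reprogramming (transdifferentiated cells). The genes were chosen by name from the count table: H19 and Igf2, which are neighbours on chromosome 7, Igf2r on chromosome 17, and Kcnq1ot1, Cdkn1c and Phlda2, which lie together elsewhere on chromosome 7. All 6 were among the 55286 gene symbols of the table, and 5 of them had enough counts to be tested, with Phlda2 left out. The samples were 2 libraries of directly reprogrammed cells, 2 of muscle and 2 of MEF, made from polyadenylated RNA and named so by their titles. The sources used here do not give the converting factor, the strain, the age and origin of the muscle, the stage of the MEF, when converted cells were taken, or whether replicates were separate cultures or animals. The p-values thus reflect only how far these libraries spread, which may be technical.

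Imprinted genes are transcribed mainly from the copy inherited from a single parent, which is set by DNA methylation at a control region. H19, a long non-coding RNA transcribed from the maternal copy, and Igf2, a fetal growth factor transcribed from the paternal copy, share enhancers, and the factor CTCF bound at their control region keeps the enhancers from Igf2 on the maternal copy. Igf2r encodes the receptor that binds IGF2 and carries it to lysosomes for breakdown. Kcnq1ot1, a long antisense RNA made from the paternal copy, silences neighbours on that copy, among them Cdkn1c, which encodes the cyclin-dependent kinase inhibitor p57, and Phlda2, which restrains placental growth. In muscle, H19 and Igf2 are abundant in the fetus, and Cdkn1c is known in mouse myoblasts to be switched on as cells leave the cell cycle and differentiate. The counts were summed over both parental copies, so imprinting itself was not measured.

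The locus also makes small RNAs, shown here because they are the processed products of the members that changed most. H19 (chr7:142575529-142578143, minus strand, mm10) holds the miR-675 hairpin within an exon, and Igf2 (chr7:142650766-142666816, minus strand) holds the miR-483 hairpin within an intron. The mature sequences are from RefSeq on GRCm38.p6, 5′ to 3′, with the seed (bases 2 to 8) in capitals, and the 4 seeds differ from each other.
mmu-miR-675-5p: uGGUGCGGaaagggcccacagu
mmu-miR-675-3p: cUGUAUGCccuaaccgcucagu
mmu-miR-483-5p: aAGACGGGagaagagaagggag
mmu-miR-483-3p: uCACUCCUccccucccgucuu
Libraries from polyadenylated RNA do not measure mature miRNAs. The Mir675 symbol had 0 counts in all 6 libraries, and Mir483 had 4 and 1 counts in transdifferentiated cells and 0 in muscle and MEF.

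RefSeq gave start-site windows, 250 bases before to 50 after a start, for 4 of the 6 members, 7 windows in all. Those of Igf2, which has 4 windows, ranged from 2 to 24 CpG sites, the Igf2r window had 34, that of Phlda2 26 and that of Kcnq1ot1 9, against a median of 7 over all 32851 windows. The Kcnq1ot1 window (chr7:143296498-143296797, minus strand, GRCm38.p6) is shown because this start lies at the control region of its domain, with CCAAT in capitals. CCAAT was searched on both strands.
Kcnq1ot1: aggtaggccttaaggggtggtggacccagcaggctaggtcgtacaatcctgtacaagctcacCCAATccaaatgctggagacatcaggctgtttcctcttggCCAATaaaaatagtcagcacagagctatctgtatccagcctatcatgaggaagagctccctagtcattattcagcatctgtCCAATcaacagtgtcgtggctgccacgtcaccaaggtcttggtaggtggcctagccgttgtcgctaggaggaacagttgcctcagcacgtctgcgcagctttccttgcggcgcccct
It holds 3 CCAAT matches, and 37.4% of all windows hold at least 1. The Igf2 window farthest upstream (chr7:142666767-142667066, minus strand) is shown because it is that of the annotated gene start, with matches to the E-box CANNTG, searched on both strands, in capitals.
Igf2: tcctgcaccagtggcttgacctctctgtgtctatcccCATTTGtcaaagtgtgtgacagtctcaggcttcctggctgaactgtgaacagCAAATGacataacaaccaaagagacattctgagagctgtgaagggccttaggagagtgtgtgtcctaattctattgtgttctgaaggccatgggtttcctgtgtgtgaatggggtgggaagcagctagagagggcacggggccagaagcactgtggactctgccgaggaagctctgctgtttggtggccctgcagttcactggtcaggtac
It holds 2 E-box matches, the most of the 4 Igf2 windows, which hold 2, 0, 1 and 0 from the farthest upstream on, and none of them holds CAGCTG. Of all windows 72.3% hold at least 1 E-box. Which Igf2 start was used cannot be read from counts per gene.

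Library totals were 16817033 to 24584951 counts. Levels are given as CPM, counts relative to the library total after TMM scaling. A gene with 0 counts may have had a level of up to 3 counts, which is 0.128 to 0.183 CPM. The labels were checked on markers. All 8 skeletal muscle markers rose in transdifferentiated cells and in muscle relative to MEF (edgeR). The summed level of 9 macrophage markers was 459 and 481 CPM in transdifferentiated cells, 3.88 and 1.83 CPM in muscle, where 3 and 5 of the 9 were at 0, and 53.2 and 39.1 CPM in MEF. That of 5 cycling-cell markers was 83.6 and 50.2 CPM in transdifferentiated cells, 13.5 and 12.2 CPM in muscle and 180.0 and 246 CPM in MEF. The 7 fibroblast markers summed to 8662 and 12971 CPM in transdifferentiated cells, 11067.5 and 5762 CPM in muscle and 25069.6 and 15024 CPM in MEF, and each of them had counts in every library. Col1a1 and Col1a2 made up most of that sum. Singly, 5 of the 7 fell in muscle relative to MEF (edgeR, median log2 difference -3.88), and 1 rose and 2 fell in transdifferentiated cells. Relative to muscle 4 of them, Lum, Pdgfra, Thy1 and Ly6a, were higher in transdifferentiated cells (7.11, 3.22, 2.22 and 1.91 in log2 units), and 2 without Muscle replicate 2. The 5 endothelial markers summed to 5.12 and 9.78 CPM in transdifferentiated cells, 1.83 and 0.122 CPM in muscle and 20.5 and 19.1 CPM in MEF. Their part in the results below was not tested. In whole-culture or tissue RNA, fewer cells of a type and less RNA per cell cannot be told apart.

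H19 was the most abundant of the 6 genes, also per kilobase of exon, and rose in both muscle states. It stood at 6127 and 7214 CPM in transdifferentiated cells, 4745 and 4254 CPM in muscle and 973 and 717 CPM in MEF. The groups did not overlap, and every library of transdifferentiated cells and muscle was above both MEF libraries. H19 took 0.648% and 0.707% of all counts in transdifferentiated cells (exact 95% intervals 0.644 to 0.652 and 0.704 to 0.711, counting error only), ranking 5 and 7 in those libraries, whereas it ranked 108 and 142 in MEF. It rose by 2.98 ± 0.27 in log2 units in transdifferentiated cells relative to MEF (SE; edgeR adjusted p = 7.56e-05) and by 2.41 ± 0.26 in muscle relative to MEF (edgeR adjusted p = 0.000166). Transdifferentiated cells averaged above muscle (6671 ± 769 and 4499.7 ± 347 CPM, SD, n = 2 each), but that difference of 0.57 ± 0.25 did not pass (edgeR adjusted p = 0.233; 95% interval 0.00 to 1.14).

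Igf2 followed the same order of group means with a much wider spread between replicates. It stood at 165 and 509 CPM in transdifferentiated cells, 156 and 121 CPM in muscle and 77.9 and 26.0 CPM in MEF. The 2 transdifferentiated libraries differed 3.09-fold and the 2 MEF libraries 2.99-fold, while the muscle libraries differed 1.28-fold. Transdifferentiated replicate 1 lay close to muscle and replicate 2 far above it. Igf2 rose by 2.70 ± 0.62 in log2 units in transdifferentiated cells relative to MEF (edgeR adjusted p = 0.0119), and this was 1.64 without Transdifferentiated replicate 2 (adjusted p = 0.0309) and 3.69, 3.30 and 2.11 without MEF replicate 1, Transdifferentiated replicate 1 and MEF replicate 2.

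In muscle relative to MEF the Igf2 difference of 1.41 ± 0.59 did not pass (edgeR adjusted p = 0.0957; 95% interval 0.07 to 2.76), although it did without MEF replicate 1 (2.41, adjusted p = 0.00299) and without Transdifferentiated replicate 1 or 2 (adjusted p = 0.0166 and 0.0211). It was also called by DESeq2 (adjusted p = 0.0228), with only the 2 groups in the fit (adjusted p = 0.0289) and without the low-count filter (adjusted p = 6.07e-05), so that 6 of 12 alternatives called it. Without MEF replicate 2 it was 0.82 (adjusted p = 0.232). Between transdifferentiated cells and muscle it was 1.28 ± 0.59 (edgeR adjusted p = 0.252; 95% interval -0.05 to 2.62). That difference fell to 0.24 without Transdifferentiated replicate 2 and was 1.88 without replicate 1 (adjusted p = 0.028), and it also passed without MEF replicate 1 or 2 (adjusted p = 0.0442 and 0.0466). Its size thus changed with the transdifferentiated library used.

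**Figure D1:**
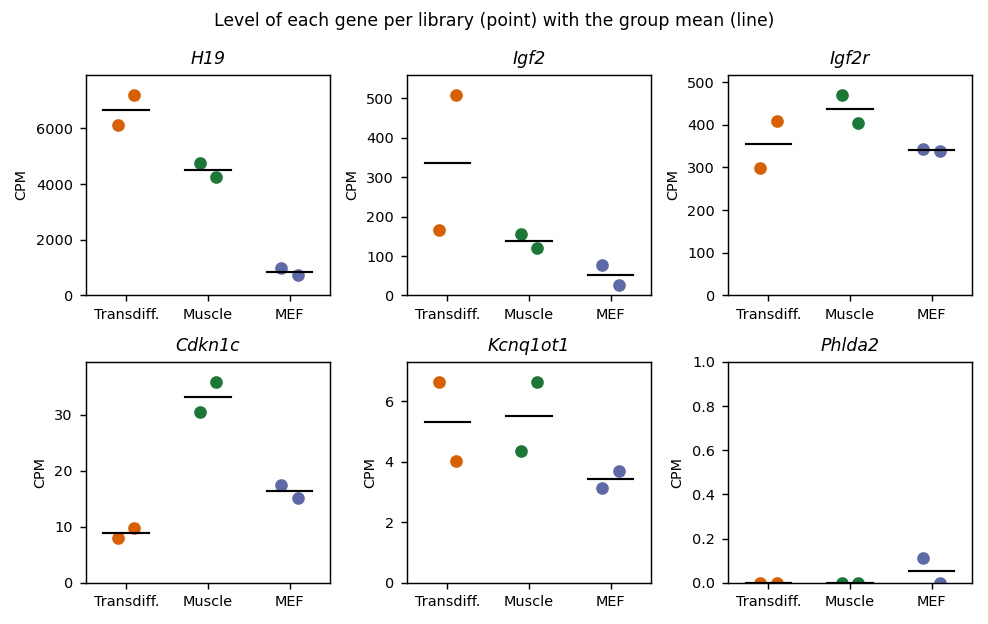
CPM of each of the 6 genes (vertical axis from 0) in transdifferentiated cells, muscle and MEF, with a point per library and a line at the mean of the 2 libraries. H19 is high in both muscle states, Igf2 is split between the transdifferentiated libraries (165 and 509 CPM), and Cdkn1c is lowest in transdifferentiated cells.

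Because both genes were counted in the same library, their ratio is free of scaling between libraries. H19 reads outnumbered Igf2 reads 37.2 and 14.2 to 1 in transdifferentiated cells, 30.5 and 35.1 to 1 in muscle and 12.5 and 27.6 to 1 in MEF. The ranges of transdifferentiated cells and MEF overlapped, and only muscle had replicates close to each other. Per kilobase of exon, H19 averaged 2712 ± 312 CPM in transdifferentiated cells, 1829 ± 141 in muscle and 344 ± 73.5 in MEF (SD, n = 2 each), and Igf2 averaged 58.9 ± 42.6, 24.2 ± 4.24 and 9.08 ± 6.41 in the same order.

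Igf2r, the IGF2-clearing receptor, passed the test in none of the 3 comparisons. It stood at 299 and 410 CPM in transdifferentiated cells, 471 and 404 CPM in muscle and 343 and 339 CPM in MEF. The transdifferentiated range spanned the MEF values and reached into the muscle range. The log2 differences were 0.05 ± 0.25 in transdifferentiated cells relative to MEF, 0.36 ± 0.25 in muscle relative to MEF and -0.30 ± 0.25 in transdifferentiated cells relative to muscle (edgeR adjusted p = 0.894, 0.299 and 0.596). Their 95% intervals were -0.51 to 0.62, -0.20 to 0.92 and -0.87 to 0.26. The first was -0.22 without Transdifferentiated replicate 2. Igf2 reads were 0.552 and 1.24 times Igf2r reads in transdifferentiated cells, 0.33 and 0.3 times in muscle and 0.227 and 0.0767 times in MEF, so the 3 groups did not overlap in this ratio of ligand to receptor.

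**Figure D2:**
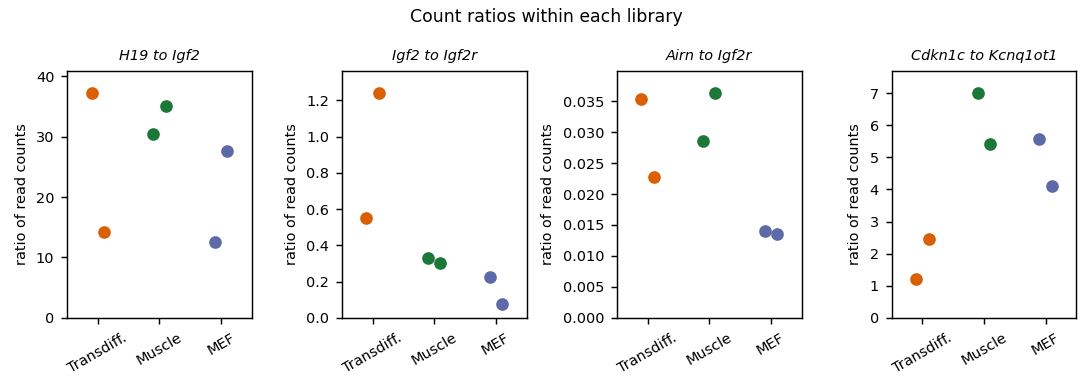
Ratio of read counts of gene pairs within each library (vertical axis from 0), with a point per library of transdifferentiated cells, muscle and MEF. Igf2 to Igf2r is highest in transdifferentiated cells (0.552 and 1.24), and Cdkn1c to Kcnq1ot1 is lowest there (1.2 and 2.46).

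Cdkn1c was the only member called between transdifferentiated cells and muscle. It stood at 7.98 and 9.88 CPM in transdifferentiated cells, 30.4 and 35.9 CPM in muscle and 17.5 and 15.2 CPM in MEF, from 142 to 714 reads a library. No groups overlapped, with muscle above MEF and transdifferentiated cells below both. Transdifferentiated cells were 3.71-fold below muscle (log2 -1.89 ± 0.29, edgeR adjusted p = 0.00395), and the call held without each single library (-2.06 to -1.74, adjusted p up to 0.041). In the libraries of transdifferentiated cells the macrophage, cycling-cell and endothelial marker sums above also exceeded those of muscle. There 4 of 7 fibroblast markers were called higher, against 7.58% of all tested genes. The part of these markers' cell types in the Cdkn1c difference was not tested.

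Relative to MEF, Cdkn1c rose by 1.02 ± 0.28 in log2 units in muscle (edgeR adjusted p = 0.0198). It did not pass when either muscle library was left out (adjusted p = 0.0683 and 0.15 without replicate 1 and 2), nor without MEF replicate 2 (adjusted p = 0.0916). In transdifferentiated cells it was -0.87 ± 0.28 (edgeR adjusted p = 0.0501; 95% interval -1.51 to -0.23). The value lay at the threshold, since DESeq2 gave an adjusted p of 0.0381 and the DESeq2-type size factors in edgeR 0.0464.

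Kcnq1ot1, the antisense RNA of the domain, was a low signal, with 57 to 118 reads a library. It stood at 6.63 and 4.02 CPM in transdifferentiated cells, 4.35 and 6.63 CPM in muscle and 3.14 and 3.69 CPM in MEF. The transdifferentiated and muscle ranges coincided almost exactly and both lay above MEF. None of its differences passed, at 0.64 ± 0.42 in transdifferentiated cells relative to MEF, 0.68 ± 0.42 in muscle relative to MEF and -0.04 ± 0.41 in transdifferentiated cells relative to muscle (edgeR adjusted p = 0.3, 0.243 and 0.981; 95% intervals -0.31 to 1.58, -0.27 to 1.62 and -0.97 to 0.89). Cdkn1c reads were 1.2 and 2.46 times Kcnq1ot1 reads in transdifferentiated cells, 7 and 5.41 times in muscle and 5.58 and 4.11 times in MEF. Kcnq1ot1 lies within Kcnq1 on the opposite strand, and no source used here gives the strand setting of the counting, so their reads may not be separated.

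Phlda2, the placental growth restrictor, had 2 reads in MEF replicate 1 and 0 in the other MEF library, in muscle and in transdifferentiated cells. A count of 0 allows up to 0.169 and 0.145 CPM in transdifferentiated cells, 0.128 and 0.183 CPM in muscle and 0.146 CPM in MEF replicate 2. It was therefore not detectable at this depth in transdifferentiated cells and muscle, and no fold is given. Its paralogues were expressed. Phlda1 averaged 76.9 ± 6.45, 84.7 ± 10.4 and 51.0 ± 14.8 CPM and Phlda3 178 ± 23.4, 409 ± 23.7 and 214 ± 19.8 CPM in transdifferentiated cells, muscle and MEF (SD, n = 2 each). Phlda3 was lower in transdifferentiated cells than in muscle (log2 -1.20, edgeR adjusted p = 0.0132), a call that did not hold without either muscle library (adjusted p = 0.107 and 0.0829) or without Transdifferentiated replicate 1 (adjusted p = 0.0836).

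Of the 5 tested members, 2 rose in transdifferentiated cells relative to MEF (H19 and Igf2) and 0 fell, where 15.9% of all 17400 tested genes rose and 11.3% fell. In muscle relative to MEF 2 rose (H19 and Cdkn1c) and 0 fell, where 17.3% of all genes rose and 18.3% fell. In transdifferentiated cells relative to muscle 0 rose and 1 fell (Cdkn1c), where 7.58% of all genes rose and 2.46% fell. The median log2 difference of the 5 was 0.64, 1.02 and -0.04 in these comparisons, against 0.07, 0.00 and 0.03 over all tested genes. Where 0 are given, 1 member (Cdkn1c, lower in transdifferentiated cells than in MEF) had an unadjusted p under 0.05 in edgeR and was called by DESeq2, and no member had either in the other directions. The comparisons with MEF share the MEF libraries.

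**Figure D3:**
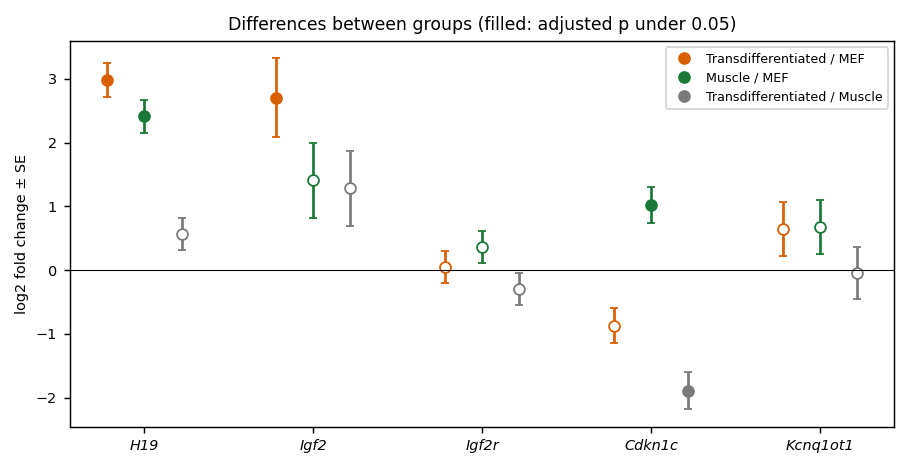
Log2 fold change ± SE (vertical axis) of the 5 tested members in the 3 comparisons, with filled points at an adjusted p under 0.05. H19 is above 0 relative to MEF in both muscle states, and Cdkn1c lies on opposite sides of 0 (-0.87 in transdifferentiated cells, 1.02 in muscle).

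The genes around H19 and Igf2 were mostly higher in both muscle states. Of 11 listed neighbours 7 were tested, and 6 rose in transdifferentiated cells and 5 in muscle relative to MEF. None was lower (0 also at an unadjusted p under 0.05 in edgeR and by DESeq2). For scale, edgeR called 15.9% of the 17400 genes up and 11.3% down in the first comparison. In the second, with muscle, it called 17.3% up and 18.3% down. Tnnt3 and Tnni2, which encode fast skeletal troponins and lie beside H19, averaged 1691 ± 46.7 and 1765 ± 275 CPM in transdifferentiated cells, 1862 ± 198 and 1652 ± 159 CPM in muscle and 2.64 ± 0.386 and 2.39 ± 0.263 CPM in MEF (SD, n = 2 each). Lsp1 and Syt8 rose less, by 1.16 ± 0.25 and 5.04 ± 0.57 in log2 units in transdifferentiated cells and by 1.55 ± 0.25 and 5.47 ± 0.57 in muscle relative to MEF (edgeR adjusted p = 0.00854, 0.000295, 0.00143 and 0.000132). The median log2 difference of the 7 was 5.04 in transdifferentiated cells (4.04 with Nctc1 at its bound) and 5.47 in muscle.

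Nctc1 and Igf2os told transdifferentiated cells and muscle apart within this neighbourhood. Nctc1 (chr7:142544609-142558596, minus strand), a non-coding transcript that spans a muscle enhancer of the locus in mouse, had 41 and 57 reads in transdifferentiated cells, 605 and 366 in muscle and 0 in both MEF libraries. It stood at 2.30 and 2.76 CPM in transdifferentiated cells against 25.8 and 22.3 CPM in muscle, a log2 difference of -3.24 ± 0.36 (edgeR adjusted p = 0.0013). Its level was at least 16.3-fold higher in transdifferentiated cells and at least 155-fold higher in muscle than the mean limit of the MEF libraries. H19 itself was at 6127 and 7214 CPM in transdifferentiated cells against 4745 and 4254 CPM in muscle.

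Igf2os, transcribed antisense to Igf2, went the other way. It stood at 7.65 and 9.64 CPM in transdifferentiated cells, 1.28 and 0.365 CPM in muscle and 0.661 and 0.389 CPM in MEF. Both transdifferentiated libraries were far above all others, while muscle and MEF overlapped. It rose by 4.04 ± 0.62 in log2 units relative to MEF (edgeR adjusted p = 0.00164) and by 3.33 ± 0.58 relative to muscle (edgeR adjusted p = 0.00766). Exons of Igf2os and Igf2 overlap on opposite strands, so part of its reads may belong to Igf2. Igf2os reads were 0.0464 and 0.0189 of Igf2 reads in transdifferentiated cells, 0.00823 and 0.00301 in muscle and 0.00848 and 0.0149 in MEF.

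**Figure D4:**
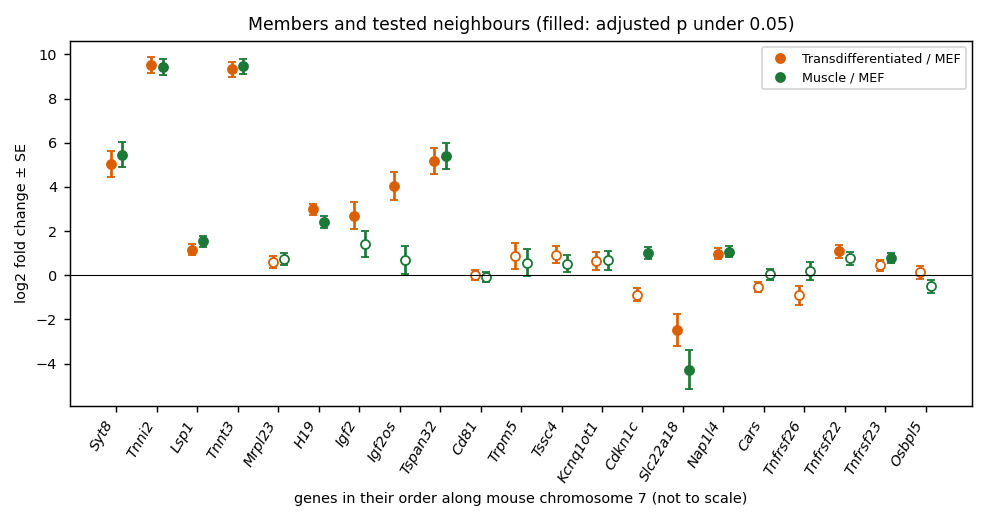
Log2 fold change ± SE (vertical axis) relative to MEF of members and tested neighbours in their order along chromosome 7, with filled points at an adjusted p under 0.05; Nctc1, at 0 in MEF, is left out. Tnni2 and Tnnt3 stand near 9 in both muscle states, whereas Cd81 lies at 0.01 and -0.06.

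Around Kcnq1ot1, of 13 listed neighbours 11 were tested, and 3 rose and 1 fell relative to MEF both in transdifferentiated cells and in muscle, with medians of 0.45 and 0.52. The shares over the whole table were 15.9% higher and 11.3% lower in transdifferentiated cells, and 17.3% higher and 18.3% lower in muscle. In transdifferentiated cells relative to muscle they were 7.58% higher and 2.46% lower. Between transdifferentiated cells and muscle none of the 11 passed (edgeR, median 0.07; 2 lower at an unadjusted p under 0.05, and 0 called by DESeq2). Tspan32, a tetraspanin, stood at 3.65 and 4.16 CPM in transdifferentiated cells, 4.65 and 4.50 CPM in muscle and 0.0551 and 0.146 CPM in MEF. It rose by 5.17 ± 0.59 and 5.39 ± 0.59 in log2 units in transdifferentiated cells and muscle (edgeR adjusted p = 0.000297 and 0.000159). Slc22a18, an imprinted membrane transporter beside Cdkn1c, was the neighbour that fell, to 0.225 and 0.339 CPM in transdifferentiated cells and 0.0426 and 0.122 CPM in muscle, against 2.15 and 1.07 CPM in MEF (adjusted p = 0.0357 and 0.00507 by edgeR).

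The Slc22a18 call in transdifferentiated cells was lost without any single library except MEF replicate 2 (adjusted p = 0.0512 to 0.286) and in DESeq2 (adjusted p = 0.0649), and that in muscle without Muscle replicate 1 (adjusted p = 0.0549). Cd81, a broadly made tetraspanin whose gene lies between Igf2 and Kcnq1ot1, stood at 1014 and 1163 CPM in transdifferentiated cells, 1054 and 1025 CPM in muscle and 1140 and 1020 CPM in MEF. Kcnq1, the potassium channel gene that hosts the antisense RNA, had 1 and 7 reads in transdifferentiated cells, 26 and 8 in muscle and 0 in MEF, and its level in muscle was at least 5.13-fold higher than the mean MEF limit. In the authors' deposited table, whose sign was that of MEF over muscle in all 2645 of its genes tested here, none of the 6 members was listed, and the table holds no gene with a log2 fold change under 2 in size. H19 was at 2.41 in muscle relative to MEF here. The authors' own value for H19 is not known, and the reason for its absence was not tested. Nctc1 and Kcnq1 were listed in the authors' deposited table at -10.01 and -3.62.

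Of 6 listed neighbours of Igf2r 2 were tested, Airn and Mas1, and both were called higher than in MEF in transdifferentiated cells and in muscle, while Igf2r was not called. Over all tested genes 15.9% and 17.3% rose in these comparisons. Mas1, a receptor gene, had 0 counts in MEF and averaged 0.885 ± 0.0198 CPM in transdifferentiated cells and 0.701 ± 0.819 CPM in muscle, at least 5.7-fold and 4.51-fold higher than the mean MEF limit, and its muscle call was lost without Muscle replicate 1 (adjusted p = 0.21). Airn is made from the paternal copy, starts within Igf2r and silences it on that copy. It stood at 10.6 and 9.34 CPM in transdifferentiated cells, 13.5 and 14.7 CPM in muscle and 4.79 and 4.61 CPM in MEF, with no overlap between groups. It rose by 1.58 ± 0.31 in log2 units in muscle (edgeR adjusted p = 0.00401) and by 1.08 ± 0.31 in transdifferentiated cells relative to MEF (edgeR adjusted p = 0.0298). The call in transdifferentiated cells was lost without any single library (adjusted p = 0.0644 to 0.122). Airn overlaps Igf2r on the opposite strand. Their annotated exons share no bases, but with the strand setting unknown, reads of unspliced Igf2r RNA within Airn exons may not be separated. Mas1 also overlaps the span of Airn on the opposite strand, so part of the few Mas1 reads may be unspliced Airn RNA. Airn reads were 0.0354 and 0.0228 of Igf2r reads in transdifferentiated cells, 0.0286 and 0.0363 in muscle and 0.014 and 0.0136 in MEF.

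Genes of IGF binding and signalling, with Igf1 and the IGF2 mRNA-binding proteins among them, moved in both directions. Of 15 listed genes 14 were tested, and 2 rose and 5 fell in transdifferentiated cells relative to MEF, 2 rose and 7 fell in muscle relative to MEF, and 6 were higher and 1 lower in transdifferentiated cells than in muscle. Of all tested genes 15.9%, 17.3% and 7.58% were higher and 11.3%, 18.3% and 2.46% lower in these comparisons. The median log2 differences of the 14 were -0.62, -1.12 and 1.12. Igfbp5, a secreted binding protein of the IGFs, was the largest rise, at 3196 and 4329 CPM in transdifferentiated cells, 1224 and 1275 CPM in muscle and 359 and 313 CPM in MEF. It rose by 3.48 ± 0.27 in log2 units in transdifferentiated cells and 1.89 ± 0.25 in muscle relative to MEF (edgeR adjusted p = 2.81e-05 and 0.000524). Igfbp7 ran the opposite way, at 86.5 and 113 CPM in transdifferentiated cells, 372 and 240 CPM in muscle and 808 and 655 CPM in MEF (log2 -2.87 ± 0.31 in transdifferentiated cells relative to MEF, edgeR adjusted p = 0.000232).

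The IGF2 mRNA-binding proteins, which bind growth-related mRNAs in embryonic cells, were lower in both muscle states for Igf2bp1 and Igf2bp3. Igf2bp1 stood at 20.7 and 22.9 CPM in transdifferentiated cells, 2.17 and 2.37 CPM in muscle and 53.1 and 42.5 CPM in MEF. It was -4.39 ± 0.31 in muscle and -1.13 ± 0.27 in transdifferentiated cells relative to MEF in log2 units (edgeR adjusted p = 1.33e-05 and 0.0135), the last not passing without Transdifferentiated replicate 1 (adjusted p = 0.0732) or MEF replicate 1 (adjusted p = 0.0788). Igf2bp3 was -2.63 ± 0.29 in muscle and -1.64 ± 0.28 in transdifferentiated cells (edgeR adjusted p = 0.00018 and 0.00277). Igf2bp2 was also lower in muscle, at -0.97 ± 0.23 (edgeR adjusted p = 0.00972), a call lost without either muscle library. In transdifferentiated cells Igf2bp2 was at -0.61 ± 0.23, which was not called (edgeR adjusted p = 0.079). Igf1, the related ligand, stood at 96.6 and 62.0 CPM in transdifferentiated cells, 5.80 and 6.51 CPM in muscle and 41.3 and 51.9 CPM in MEF, and was higher in transdifferentiated cells than in muscle by 3.69 ± 0.33 in log2 units (edgeR adjusted p = 0.000347). Macrophages also make Igf1, and their 9 markers were all higher in transdifferentiated cells than in muscle, as were 7.58% of all tested genes. The part of such cells was not tested.

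The counts of IGF genes varied with the libraries. Relative to MEF, the rise in transdifferentiated cells was 1 gene in place of 2 without MEF replicate 2, Muscle replicate 1 or Muscle replicate 2, and the fall was 2 in place of 5 without MEF replicate 1 or Transdifferentiated replicate 1. Without Muscle replicate 2, 4 fell and 1 rose in muscle and 2 were higher in transdifferentiated cells than in muscle. The lower gene of that last comparison, Igfbp7, was lost without Muscle replicate 1, and 2 were lower without MEF replicate 1 or 2.

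**Figure D5:**
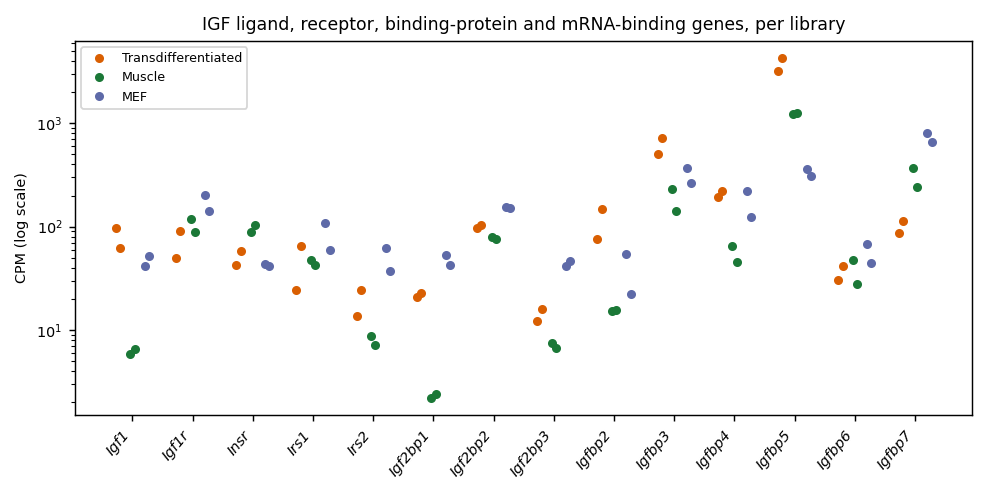
CPM on a log scale (vertical axis) of the 14 tested genes of IGF binding and signalling, with a point per library of transdifferentiated cells, muscle and MEF. The genes include Igf1 and the IGF2 mRNA-binding proteins. Igfbp5 is highest in transdifferentiated cells (3196 and 4329 CPM), and Igf1 and Igf2bp1 are lowest in muscle.

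Igf2r is also the large mannose 6-phosphate receptor, which sorts enzymes to lysosomes. Of 7 genes of that sorting route, all tested, 1 rose and 2 fell in transdifferentiated cells and 1 rose and 3 fell in muscle relative to MEF, and none passed between transdifferentiated cells and muscle (edgeR; 1 higher at an unadjusted p under 0.05, and 0 called by DESeq2). Of all tested genes 15.9%, 17.3% and 7.58% were higher and 11.3%, 18.3% and 2.46% lower in these comparisons. The median log2 differences of the 7 were -0.68, -0.84 and 0.16. M6pr, the small receptor with the same ligand, averaged 46.5 ± 9.35 CPM in transdifferentiated cells, 50.9 ± 0.621 in muscle and 103 ± 10.5 in MEF (SD, n = 2 each; log2 -1.15 ± 0.26 and -1.01 ± 0.26 relative to MEF, edgeR adjusted p = 0.0108 and 0.0139). The M6pr calls were lost without Transdifferentiated replicate 2 in transdifferentiated cells (adjusted p = 0.0611), and in muscle without either muscle library (adjusted p = 0.0984 and 0.101) or MEF replicate 2 (adjusted p = 0.0523). Gnptab, which makes the tag, was -1.34 ± 0.26 in transdifferentiated cells and -2.00 ± 0.26 in muscle (edgeR adjusted p = 0.00476 and 0.000453). Gga2, a sorting adaptor, rose by 1.08 ± 0.23 and 1.13 ± 0.23 (edgeR adjusted p = 0.00852 and 0.00491). Without Transdifferentiated replicate 2 the falling count in transdifferentiated cells was 1, and without Muscle replicate 2 that in muscle was 1.

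Cdkn1c belongs to a family of 3 inhibitors with Cdkn1a and Cdkn1b. Cdkn1a, which encodes p21, stood at 1058 and 1585 CPM in transdifferentiated cells, 1969 and 1932 CPM in muscle and 635 and 437 CPM in MEF. It rose by 1.30 ± 0.29 in log2 units in transdifferentiated cells and by 1.86 ± 0.30 in muscle relative to MEF (edgeR adjusted p = 0.0109 and 0.00141), that in transdifferentiated cells lost without Transdifferentiated replicate 2 (adjusted p = 0.0589). Cdkn1b, which encodes p27, averaged 28.7 ± 10, 28.1 ± 9.05 and 29.1 ± 0.688 CPM in transdifferentiated cells, muscle and MEF. Among all 10 inhibitors and G1 cyclin and kinase genes listed, 2 rose and 5 fell in transdifferentiated cells and 3 rose and 5 fell in muscle relative to MEF, with medians of -0.40 and -0.98. For all tested genes the shares were 15.9% higher and 11.3% lower in transdifferentiated cells, and 17.3% higher and 18.3% lower in muscle. In transdifferentiated cells relative to muscle they were 7.58% higher and 2.46% lower. The cyclin Ccnd1 fell to 18.2 and 30.2 CPM in transdifferentiated cells and 22.8 and 25.1 CPM in muscle, against 166 and 117 CPM in MEF (adjusted p = 0.000699 and 0.000465 by edgeR). Ccnd3, the cyclin D of differentiated muscle, rose by 1.69 ± 0.30 and 2.36 ± 0.31 (edgeR adjusted p = 0.00371 and 0.000511). Between transdifferentiated cells and muscle only Cdk2 of the 10 passed (log2 -1.19 ± 0.25, edgeR adjusted p = 0.0188), and it did not hold without either muscle library (adjusted p = 0.0813 and 0.168) or without Transdifferentiated replicate 1 (adjusted p = 0.106). The fall of 5 was 3 without MEF replicate 1 or Transdifferentiated replicate 2 in transdifferentiated cells and without Muscle replicate 1 or 2 in muscle, and the rise of 2 was 1 without Transdifferentiated replicate 2.

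Most factors that act on imprinted control regions did not pass the test. Of 11 listed, 10 were tested, with 1 rise in transdifferentiated cells, and 1 rise and 1 fall in muscle, relative to MEF. Among the 17400 genes, edgeR called 15.9% up and 11.3% down in the former, and 17.3% and 18.3% in the latter. Most genes at large thus did not pass either. The median log2 differences of the 10 were 0.06 and -0.16. CTCF mRNA (Ctcf) averaged 35.3 ± 7.44, 25.8 ± 4.15 and 26.5 ± 6.44 CPM, and Zfp57, which protects imprints, 38.9 ± 3.92, 26.5 ± 9.14 and 32.3 ± 2.32 CPM in transdifferentiated cells, muscle and MEF (SD, n = 2 each). The gene that rose in both was Zfp568, a zinc finger repressor of a placental Igf2 transcript in mouse. It stood at 143 and 170 CPM in transdifferentiated cells, 122 and 130 CPM in muscle and 17.5 and 18.6 CPM in MEF, and rose by 3.11 ± 0.26 and 2.80 ± 0.25 in log2 units (edgeR adjusted p = 4.01e-05 and 5.34e-05). Plagl1, an imprinted activator of Igf2, H19 and Cdkn1c in mouse, stood at 125 and 132 CPM in transdifferentiated cells, 37.6 and 62.3 CPM in muscle and 176 and 160 CPM in MEF. It was -1.75 ± 0.29 in muscle relative to MEF (edgeR adjusted p = 0.0019) and 1.37 ± 0.29 in transdifferentiated cells relative to muscle (edgeR adjusted p = 0.0189), the last lost without Muscle replicate 1 (adjusted p = 0.172). Without Transdifferentiated replicate 1, 2 of these genes rose in muscle, and without MEF replicate 1, 2 fell.

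Other imprinted genes that are often expressed together with H19 and Igf2 in growing tissue were mostly lower in muscle, as were 5 of 7 fibroblast markers relative to MEF, whose part was not tested. The list holds Dcn, a matrix gene of fibroblasts, at -2.82 in muscle relative to MEF and 2.81 in transdifferentiated cells relative to muscle. Of 8 listed, all tested, 3 rose and 2 fell in transdifferentiated cells relative to MEF, 1 rose and 6 fell in muscle relative to MEF, and 6 were higher and 1 lower in transdifferentiated cells than in muscle. Of all tested genes 15.9%, 17.3% and 7.58% were higher and 11.3%, 18.3% and 2.46% lower in these comparisons. The median log2 differences of the 8 were 0.85, -2.43 and 3.04. Dlk1, which encodes a growth-regulating membrane protein, stood at 356 and 652 CPM in transdifferentiated cells, 2.9 and 0.304 CPM in muscle and 268 and 143 CPM in MEF. It was higher in transdifferentiated cells than in muscle by 8.22 ± 0.87 in log2 units (edgeR adjusted p = 0.000685). Mest stood at 540 and 475 CPM in transdifferentiated cells, 41.2 and 63.4 CPM in muscle and 77.7 and 80.0 CPM in MEF, and was higher in transdifferentiated cells than in muscle by 3.28 ± 0.29 in log2 units (edgeR adjusted p = 0.000343). Slc38a4, an amino acid transporter, stood at 157 and 145 CPM in transdifferentiated cells, 2.86 and 2.37 CPM in muscle and 101 and 125 CPM in MEF. Peg3 alone rose in muscle, by 2.02 ± 0.26, as it did in transdifferentiated cells, by 1.96 ± 0.26 (edgeR adjusted p = 0.000394 and 0.000645). The fall of 2 in transdifferentiated cells was 1 without any single library except MEF replicate 2 and Transdifferentiated replicate 2, and the single lower gene between transdifferentiated cells and muscle, Grb10, was lost without either library of muscle or of transdifferentiated cells (adjusted p = 0.123 to 0.324).

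Genes whose profile was most like that of each member were found among 9455 or 9456 tested genes at a mean of 10 CPM or more, by the root mean square difference of centred log2 CPM over the 6 libraries. They were Mcu, Dtx4 and Shb for H19 (0.108, 0.130 and 0.159 log2 units, where H19 spanned 3.33). Mcu, the mitochondrial calcium channel, averaged 419 CPM in transdifferentiated cells, 294 in muscle and 50.7 in MEF. For Igf2 they were Efs, Arvcf and Lingo1 (0.260, 0.320 and 0.339, where Igf2 spanned 4.28). These differences were larger than for any other member, but Igf2 also had the widest range. For Cdkn1c they were Zfp365, Spry1 and 4833420G17Rik (0.133, 0.199 and 0.200). Spry1, an inhibitor of growth factor receptor signalling, averaged 73.0 CPM in transdifferentiated cells, 209.5 in muscle and 109 in MEF. For Igf2r they were Eya3, Lrp11 and Gm6467 (0.0465 to 0.0733), and for Kcnq1ot1 Syf2, Fbxo8 and Fam49b (0.0587 to 0.085), both members with little range to match. The likeness is a description over 6 libraries.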

How the data were processed

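For each gene symbol the authors deposited raw read counts of 6 mouse libraries. Per the labels' protocols, libraries were made with the SENSE mRNA-seq kit V2 and sequenced as 75-bp single-end reads. The submitters' processing notes name featureCounts 1.6.2, HISAT2 2.1.0, Trim Galore 0.6.0, DESeq2 1.26.0 and the build mm10, without roles. No source used here gives the annotation or the strand setting. A deposited table by the authors holds log2 fold changes, p-values and adjusted p-values for 2806 genes, and its column of means (deposited signal values) was not used.

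Counts were fitted in R 4.3.3 with edgeR 4.0.16, by its quasi-likelihood test with TMM, filterByExpr and group as the term, over all 6 libraries. Adjusted p-values are Benjamini-Hochberg values over 17400 genes, called under 0.05, and every "adjusted p" in the text is edgeR's unless DESeq2 1.42.0 is named. SE is the log2 fold change divided by the square root of F. The test was checked on simulated counts. With 2 libraries a group an exact permutation test cannot give a two-sided p under 0.333. Coordinates and exon lengths come from GENCODE M21 on mm10 (53289 symbols matched), and sequences from RefSeq on GRCm38.p6. Replicate pairs differed by more than counting noise, at a chi-square of 37.1 to 66.4 per degree of freedom. Named genes are the 6 members, called genes of 14 lists, mainly those with the largest change, and the 3 genes nearest each member in profile. The uncalled list genes Cd81, Kcnq1, Phlda1, Cdkn1b, Ctcf and Zfp57 were added for their roles after values were seen. The untested list genes Ascl2, Ins2, Th, Mir675 and Mir483 are also given with values, outside the rule for called genes. The members and lists were chosen with earlier results of these data known. Alternatives were DESeq2, other scaling, no filter, the 2 groups alone, a replicate block and leaving out each library.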

Additional observations from a re-analysis of the deposited data

Results flagged for a closer look

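Cdkn1c was set aside because it was the only member called between transdifferentiated cells and muscle. The test that set it aside gave -1.89 (edgeR adjusted p = 0.00395), with both transdifferentiated libraries below both muscle libraries. Relative to MEF it was at -0.87 in transdifferentiated cells on the log2 scale, which was not called (edgeR adjusted p = 0.0501). In muscle it was at 1.02 relative to MEF (edgeR adjusted p = 0.0198).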

How the results depend on the processing

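H19 was called relative to MEF in both muscle states under all 12 alternatives (2.77 to 3.21 in transdifferentiated cells and 2.20 to 2.65 in muscle), Igf2 in transdifferentiated cells relative to MEF under all 12 (1.64 to 3.69), and Cdkn1c in transdifferentiated cells relative to muscle under all 12 (-2.06 to -1.74). With DESeq2-type (RLE) size factors, library totals or DESeq2, 1 member (Cdkn1c) fell in transdifferentiated cells relative to MEF in place of 0. Without the low-count filter 1 member (Igf2) was higher in transdifferentiated cells than in muscle, and 670 of all genes were lower in place of 428; the cause was not tested. In transdifferentiated cells relative to MEF, leaving out each library gave 2 members higher in every case, 0 lower, and 1280 (without Transdifferentiated replicate 1) to 1926 of all genes lower.

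In muscle relative to MEF it gave 1 to 3 members higher (3 also by DESeq2, without the filter and with the 2 groups alone, where Igf2 was called), with 1980 (without Muscle replicate 2) to 3223 of all genes higher and 1778 (without Muscle replicate 2) to 3445 lower, and 2118 lower without Muscle replicate 1. In transdifferentiated cells relative to muscle it gave 0 to 1 members higher, 589 to 1616 of all genes higher (589 and 743 without Muscle replicate 2 and 1) and 140 to 605 lower (140, 165 and 228 without Muscle replicate 2, Muscle replicate 1 and Transdifferentiated replicate 1). Directions turned only where no difference was called: Igf2r in transdifferentiated cells relative to MEF was -0.22 without Transdifferentiated replicate 2, and Kcnq1ot1 in transdifferentiated cells relative to muscle was 0.05 with library totals and 0.28 and 0.27 without Muscle replicate 2 and Transdifferentiated replicate 2, the highest and next of a range from -0.44.

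Over all tested genes, the differences between replicates 1 and 2 correlated at -0.291 between transdifferentiated cells and muscle. They correlated at -0.529 between transdifferentiated cells and MEF and at 0.314 between muscle and MEF. The signs differed, so the replicate numbers gave no common pairing. Replicates still differed partly along a direction shared by the groups, in opposite order in transdifferentiated cells. Its part in the spread of Igf2 between replicates was not tested. With the replicate block, members higher in muscle relative to MEF numbered 1, since Cdkn1c was not called (adjusted p = 0.0584), and 265 of all genes were lower in transdifferentiated cells than in muscle. Kcnq1ot1 rested on 57 to 118 reads a library, with replicates 1.65-fold apart in transdifferentiated cells, and Phlda2 had too few counts to be tested.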

Other observations

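Several neighbours of the 3 domains were close to silent and were not tested. The placental factor Ascl2 averaged 0.342 CPM in transdifferentiated cells, 0.0213 in muscle and 0.152 in MEF. The insulin gene Ins2, next to Igf2, averaged 0.290 CPM in transdifferentiated cells and 0.0518 in muscle and had 0 counts in MEF, and its level in transdifferentiated cells was at least 1.86-fold higher than the mean MEF limit. Th had 0 counts in all 6 libraries.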
